A study of Mus musculus with 6 samples.

Results

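Fatty acid oxidation genes were compared between the intestines of control mice and of mice put through an experimental model of necrotizing enterocolitis (NEC). The set held 9 genes, taken by symbol out of 54446 gene identifiers: the transcription factor gene Ppara, the carnitine shuttle genes Cpt1a, Slc25a20 and Cpt2, the acyl-CoA dehydrogenase genes Acadvl, Acadl and Acadm, and Hadha and Hadhb, which encode the subunits of the trifunctional protein. All 9 were found, and all 9 passed the filter on low counts, which left 19176 genes tested. Although ketogenesis belongs to the same theme, none of the 9 genes makes ketone bodies, so ketone body genes were described from a separate list. RNA of whole intestinal tissue was sequenced from 3 control and 3 NEC samples, all labelled WT and all taken at 96 h. Control mice were fed by the dam and met neither hypoxia nor cold. NEC mice were gavaged with 40 µl of 33% Esbilac formula at intervals of 4 h, and at intervals of 12 h they breathed 99.9% nitrogen for 100 s and were then kept at 4 °C for 10 min. The strain, age, sex and intestinal segment are not given in the labels, and the labels do not say whether each sample came from 1 mouse, so the p-values reflect only how much these 6 samples vary, part of which may be technical. The model joins formula, hypoxia and cold, and their effects cannot be told apart.

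Long-chain fatty acids are burned in mitochondria in an ordered chain. CPT1 on the outer membrane joins the activated fatty acid to carnitine, the SLC25A20 translocase carries the acylcarnitine inward, and CPT2 gives back the acyl-CoA. Acyl-CoA dehydrogenases for very long, long and medium chains then start each round of beta-oxidation, and the trifunctional protein completes it for long chains. PPAR alpha is a nuclear receptor that binds fatty acids and is known for driving these genes. Milk is rich in fat, and the suckling intestine is known as one of the sites that make ketone bodies from it.

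The promoters of these genes are shown because PPAR alpha, itself among the 9 genes, is known to bind repeated copies of the half-site AGGTCA. Windows of 300 bases, from 250 bases before to 50 bases after the RefSeq start site on GRCm38.p6, were found for all 9 genes. AGGTCA on either strand occurred in 3 of the 9 windows, those of Cpt1a, Acadvl and Acadm, and in 16.3% of the 32851 windows of all genes. A direct repeat of the half-site with 1 base between the copies (AGGTCANAGGTCA, either strand) occurred in 0 of the 9 windows and in 0.0396% of all windows. A match this rare would hardly be met in 9 windows, so its absence tells nothing about these genes. Looser forms of the repeat were not searched. These matches are letters in a window and are not measured binding. In the next 3 lines, written 5′ to 3′ on the strand of the gene, capitals mark the half-site, which reads TGACCT where it lies on the other strand. The windows are chr19:3323051-3323350 on the plus strand for Cpt1a, chr11:70015379-70015678 on the minus strand for Acadvl and chr3:153944594-153944893 on the minus strand for Acadm.
Cpt1a: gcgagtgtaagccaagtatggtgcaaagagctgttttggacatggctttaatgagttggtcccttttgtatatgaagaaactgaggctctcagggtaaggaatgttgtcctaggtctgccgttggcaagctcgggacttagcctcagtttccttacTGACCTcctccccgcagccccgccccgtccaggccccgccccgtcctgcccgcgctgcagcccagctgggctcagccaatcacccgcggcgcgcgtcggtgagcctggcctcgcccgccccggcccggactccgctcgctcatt
Acadvl: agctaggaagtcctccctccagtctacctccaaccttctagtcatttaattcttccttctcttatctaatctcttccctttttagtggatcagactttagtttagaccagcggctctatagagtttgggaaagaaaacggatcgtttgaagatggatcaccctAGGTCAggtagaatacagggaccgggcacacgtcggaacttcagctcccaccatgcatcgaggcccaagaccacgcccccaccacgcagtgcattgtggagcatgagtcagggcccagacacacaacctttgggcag
Acadm: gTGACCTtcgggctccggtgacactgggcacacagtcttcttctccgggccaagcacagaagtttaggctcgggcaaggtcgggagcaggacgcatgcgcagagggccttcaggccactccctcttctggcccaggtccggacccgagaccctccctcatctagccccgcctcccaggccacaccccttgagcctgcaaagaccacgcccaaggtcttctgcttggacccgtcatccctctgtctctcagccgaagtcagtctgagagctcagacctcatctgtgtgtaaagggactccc

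Hadha and Hadhb lie head to head on chromosome 5, with RefSeq start sites 273 bases apart, so their promoter windows share 228 bases. The sequence is shown because the shared bases lie between these start sites, and the subunit genes are read away from them in opposite directions. The RefSeq start of Hadha, at 30154980, lies just outside the printed stretch. In GENCODE M21 the Hadha gene instead ends at 30155162, inside it, so the distance depends on the annotation. The stretch is the Hadhb window, chr5:30155003-30155302 on the plus strand, with the bases shared with the Hadha window in capitals.
Hadhb: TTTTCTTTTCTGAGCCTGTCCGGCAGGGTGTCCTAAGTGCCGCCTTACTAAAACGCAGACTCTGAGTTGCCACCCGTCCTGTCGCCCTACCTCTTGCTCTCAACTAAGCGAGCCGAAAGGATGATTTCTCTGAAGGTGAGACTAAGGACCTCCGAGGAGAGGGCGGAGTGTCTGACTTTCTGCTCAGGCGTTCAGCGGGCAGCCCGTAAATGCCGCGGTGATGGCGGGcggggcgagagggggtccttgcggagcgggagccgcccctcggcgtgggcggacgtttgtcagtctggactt

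Total counts ran from 69441184 to 106304239 per library, and counts of the 9 genes from 172 for Ppara up to 64662 for Acadl in a single library. Values are given as CPM, the usual counts scaled to library size, with library sizes adjusted by TMM. Genes that mark the epithelium, such as Epcam and Vil1, summed to between 6059 and 8214 CPM in the 6 libraries, so epithelial messages were present in every library. Summed markers of absorptive enterocytes, the cells that take up milk fat, ran from 18305 to 22110 CPM in control and from 10525 to 19211 CPM in NEC, lowest in NEC replicate 2. Neutrophil markers summed to 5.40 to 10.3 CPM in control and 27.6 to 51.7 CPM in NEC, erythroid markers to 213 to 338 CPM and 475 to 2751 CPM, and hepatocyte markers, mostly Ttr and Serpina1a, to 503 to 659 CPM and 279 to 391 CPM. The liver gene Alb instead followed the sample codes described below, at 25.9 CPM in control replicate 3 and 21.8 CPM in NEC replicate 1 against 0.201 CPM or less in the other 4 libraries, and Ahsg was likewise highest in that pair (4.98 and 2.84 CPM). Apoh and Cyp2e1 were highest in that pair too, at 1.69 CPM or less. Fga and Ttr, by contrast, were lowest in control replicate 3 (1.17 and 138 CPM). Serpina1a was at 331 CPM in control replicate 3 but 5.67 CPM in NEC replicate 1. Of the markers tested, 0 of 10 for enterocytes, 0 of 5 for neutrophils (Ly6g was at 0), 0 of 7 for erythroid cells and 0 of 6 for hepatocytes were called. Among 8 macrophage markers 1 was called, Cd163, which rose from 0.200 to 0.382 CPM in control to 2.02 to 5.33 CPM in NEC (log2 fold change 3.71, edgeR adjusted p = 0.0396), while the list summed to 318 to 401 CPM in control and 218 to 314 CPM in NEC, mostly Csf1r. Csf1r alone of the 8 had a negative log2 fold change (-1.10, edgeR adjusted p = 0.0919). Among 4 tested pancreas markers 1 was called, Cela1, which fell (log2 fold change -3.06, edgeR adjusted p = 0.0297), with list sums of 40.8 to 182 CPM and 11.5 to 80.5 CPM. Nearly all of these sums was Cela1 and Ctrb1. Pnlip was at 0, and Prss2, Cpa1, Cpb1 and Amy2a5 were at 0.948 CPM or less in every library, so the list does not show a pancreas signal. Beside these marker counts, 0.704% of all genes tested were called. The part of these cell types in the results was not tested. Adipocyte markers summed to at most 2.84 CPM, with Lep and Retn at 0. In whole tissue, fewer cells of a type and less RNA per cell cannot be told apart. By library total, the X-inactivation RNA Xist was found at 168 CPM in control replicate 1, at 344 CPM in control replicate 2 and at no more than 1.16 CPM in the other 4 libraries, while the Y-linked gene Ddx3y stood at 18.7 CPM in control replicate 1 and at 1.30 CPM in control replicate 2. Ddx3y was at 25.1 CPM or more in the other 4 libraries. Control replicate 1 thus held both signals. Libraries with Xist were found among the controls only, so group and sex signal cannot be fully told apart. Control replicate 3 and NEC replicate 1 carry sample codes starting AG181028 and the other 4 samples codes starting AG181017. The labels do not say what the codes stand for, so ratios within each code are given for named genes where they lay on opposite sides of 1 or over 1.5 times apart.

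None of the 9 genes passed the test between NEC and control. By edgeR's quasi-likelihood test with Benjamini-Hochberg adjustment over all genes, 0 of 9 were called at an adjusted p below 0.05, against 0.704% of all genes tested. The adjusted p of the 9 genes ran from 0.361 to 0.897. At an unadjusted p below 0.05 the count was also 0 of 9, against 15.6% of all genes tested, and DESeq2 called 0 of 9, against 5.74% of the genes to which it gave an adjusted p. The fitted log2 fold changes, with positive values higher in NEC, were negative for 6 genes and positive for 3. Their median was -0.21, beside 0.026 over all genes tested. The NEC libraries all lay below the control libraries in 2 of the 9 genes, Slc25a20 and Cpt2, where 11.6% of all genes tested had that order. The opposite order was seen in 0 of the 9 genes and in 10.8% of all genes tested. The members other than Ppara summed to between 2017 and 2193 CPM in control and between 1706 and 2059 CPM in NEC, and the ranges overlapped.

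**Figure D1:**
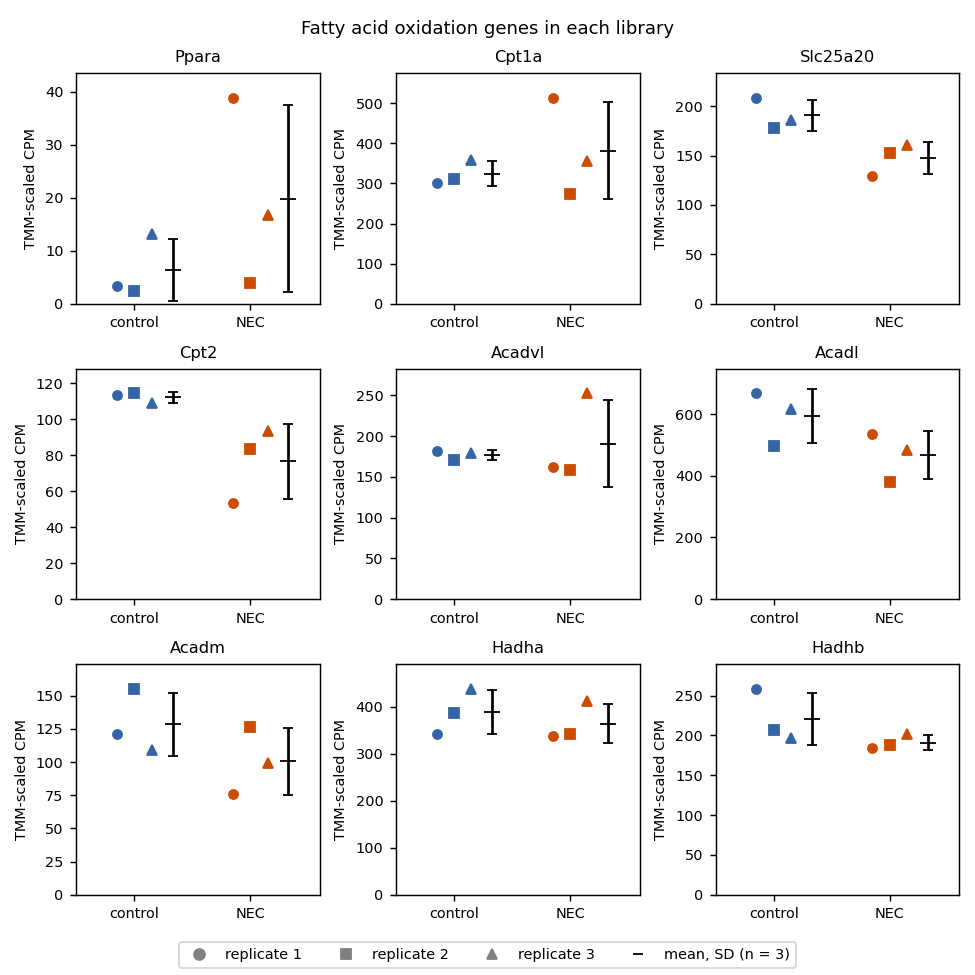
TMM-scaled CPM of the 9 fatty acid oxidation genes in each library (points, marked by replicate number), with the mean and SD of 3 libraries per group. The groups separate for Slc25a20 and Cpt2, by a narrow gap for Slc25a20, and Ppara spreads widely within both groups.

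Ppara (ENSMUSG00000022383, chromosome 15, 85734983 to 85802819, plus strand) was the most variable of the 9 genes. It stood at 3.42, 2.47 and 13.1 CPM in the controls, replicates 1 to 3, and at 38.8, 3.97 and 16.7 CPM in NEC replicates 1 to 3. NEC replicate 1 was the highest library, control replicate 3 lay close to NEC replicate 3, and NEC replicate 2 lay close to control replicate 1, so the groups overlapped. The coefficient of variation was 92.9% in control and 88.9% in NEC, whereas in the other 8 genes it ran from 2.60% to 18.5% in control and from 4.78% to 31.8% in NEC. The log2 fold change was 1.65 (SE 0.89, 95% interval -0.41 to 3.70), with an edgeR adjusted p of 0.426. Leaving out NEC replicate 1 brought it to 0.70 and leaving out control replicate 3 to 2.76. Without control replicates 1 and 2, which leaves 1 control, it was 0.60. Within each sample code NEC lay above control. The ratio was 3.52 for the means in AG181017 and 2.96 in AG181028, which holds 1 library per group. The AG181017 controls were also the libraries with Xist, and the part of sex was not tested. With the code as a term the log2 fold change was 1.73 and the edgeR adjusted p 0.131. Control replicate 3 and NEC replicate 1, each the highest Ppara library of its group, were also the pair with Alb counts, while NEC replicate 3 had 16.7 CPM of Ppara with 0.172 CPM of Alb. The part of liver RNA was not tested.

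Among the PPAR genes, Ppara was not the most abundant message in these libraries. Per kilobase of exon, Ppara made up between 9.46% and 33.7% of the summed CPM of Ppara, Ppard and Pparg. Pparg, the receptor best known from fat cells, made up between 60.3% and 85.7%, and the widely expressed Ppard between 2.97% and 10.1%. Pparg stood at 21.1, 16.2 and 31.2 CPM in the control libraries and at 53.5, 24.0 and 43.8 CPM in the NEC libraries (NEC over control on the log2 scale 0.83, SE 0.37, edgeR adjusted p = 0.339). Only 1 NEC library, replicate 2, lay within the control range.

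In the carnitine shuttle, the gene of the first step and those of the later steps had fold changes of opposite sign, and none passed the test. Cpt1a (ENSMUSG00000024900, chromosome 19, 3322334 to 3385733, plus strand) encodes the step at which malonyl-CoA restrains oxidation. It stood at 301, 312 and 359 CPM in the control libraries and at 514, 274 and 357 CPM in the NEC libraries. NEC replicate 1 was above all controls, NEC replicate 2 below all controls, and NEC replicate 3 within their range. Its log2 fold change was 0.24 (SE 0.28, 95% interval -0.42 to 0.89, edgeR adjusted p = 0.754), and without NEC replicate 1 it was -0.040.

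Slc25a20 (ENSMUSG00000032602, chromosome 9, 108662088 to 108684641, plus strand), the carrier of the inner membrane, stood at 208, 178 and 187 CPM in the control libraries and at 130, 152 and 161 CPM in the NEC libraries. Every NEC library was below every control, with the lowest value in NEC replicate 1. The log2 fold change was -0.37 (SE 0.21, 95% interval -0.86 to 0.12, edgeR adjusted p = 0.455). Cpt2 (ENSMUSG00000028607, chromosome 4, 107903981 to 107923610, minus strand), which releases the acyl-CoA in the matrix, stood at 113, 114 and 109 CPM in the control libraries and at 53.3, 83.4 and 93.3 CPM in the NEC libraries. The control libraries were nearly level (112 ± 2.92 CPM, SD, n = 3), while the NEC libraries were lower and more scattered (76.7 ± 20.8 CPM). The log2 fold change of -0.55 (SE 0.26, 95% interval -1.15 to 0.05) had the smallest p of the 9 genes, with an edgeR adjusted p of 0.361. It was -0.35 without NEC replicate 1.

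The balance between the outer and inner carnitine steps was looked at within libraries, where library scaling cancels out. This and 2 other ratios of length-scaled levels were chosen after the values were seen. The ratio of Cpt1a to Cpt2, each per kilobase of exon, was 0.831, 0.854 and 1.03 in control and 3.01, 1.03 and 1.198 in NEC. NEC replicate 1 stood far above the other libraries, NEC replicate 2 was level with control replicate 3, and the two-sided exact permutation p on the log2 ratio was 0.2 (0.3 adjusted over the 3 ratios; the smallest possible p is 0.1). Of the 3 genes of CPT1 isoforms, the liver-type Cpt1a made up between 96.6% and 99.1% of the summed length-scaled level, with Cpt1c at 1.25% or less. Cpt1b was at 2.74% or less, but Gm44502 on the same strand covers 81.4% of its exons, so its counts, and the shares with them, are uncertain.

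The acyl-CoA dehydrogenases, which differ in the chain length they act on, did not share a pattern. Acadl (ENSMUSG00000026003, chromosome 1, 66830839 to 66863277, minus strand), for long chains, stood at 667, 496 and 615 CPM in the control libraries and at 537, 381 and 484 CPM in the NEC libraries. NEC replicates 2 and 3 were below all controls, and NEC replicate 1 was within the control range (log2 fold change -0.34, SE 0.25, 95% interval -0.92 to 0.24, edgeR adjusted p = 0.576). Acadm (ENSMUSG00000062908, chromosome 3, 153922357 to 153944632, minus strand), for medium chains, stood at 121, 155 and 109 CPM in the control libraries and at 75.7, 127 and 99.0 CPM in the NEC libraries. Its highest NEC library, replicate 2, was within the control range (log2 fold change -0.35, SE 0.27, 95% interval -0.98 to 0.27, edgeR adjusted p = 0.591).

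Acadvl (ENSMUSG00000018574, chromosome 11, 70010183 to 70015411, minus strand), for very long chains, stood at 182, 171 and 179 CPM in the control libraries and at 162, 158 and 252 CPM in the NEC libraries. The 2 lower NEC libraries lay just under the control range and NEC replicate 3 above it. The log2 fold change was 0.11 (SE 0.25, 95% interval -0.48 to 0.70, edgeR adjusted p = 0.895), and without NEC replicate 3 it was -0.14. Exons of Dvl2 on the opposite strand cover 42.9% of the Acadvl exons, and since the strand setting is not given in the sources used here their counts cannot be told apart, although Dvl2 itself had 7424 counts over the 6 libraries. The length-scaled ratio of Acadl to Acadvl was 4.92, 3.89 and 4.61 in control and 4.43, 3.23 and 2.57 in NEC, with overlapping groups (two-sided exact permutation p = 0.2, 0.3 adjusted over the 3 ratios).

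Both trifunctional protein genes had overlapping groups and log2 fold changes close to 0. Hadha (ENSMUSG00000025745, chromosome 5, 30118304 to 30155162, minus strand) encodes the alpha subunit, with the hydratase and long-chain hydroxyacyl-CoA dehydrogenase activities, and stood at 343, 386 and 437 CPM in the control libraries and at 338, 342 and 411 CPM in the NEC libraries. The groups overlapped, and NEC over control gave -0.095 on the log2 scale (SE 0.23, 95% interval -0.62 to 0.43, edgeR adjusted p = 0.897). Hadhb (ENSMUSG00000059447, chromosome 5, 30155248 to 30184593, plus strand) encodes the thiolase subunit and stood at 258, 206 and 197 CPM in the control libraries and at 184, 188 and 201 CPM in the NEC libraries. Control replicate 1 was set apart from the other 5 libraries, and the log2 fold change was -0.21 (SE 0.22, 95% interval -0.71 to 0.30, edgeR adjusted p = 0.715). The length-scaled ratio of Hadha to Hadhb, the pair with the shared promoter window, was 1.0015, 1.41 and 1.68 in control and 1.39, 1.37 and 1.54 in NEC (two-sided exact permutation p = 0.9, also after adjustment over the 3 ratios). As folds, the 95% intervals ran from 0.649 to 1.35 for Hadha and from 0.610 to 1.23 for Hadhb. Larger falls lay outside the intervals, while smaller falls lay within them and could not be told from no change.

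**Figure D2:**
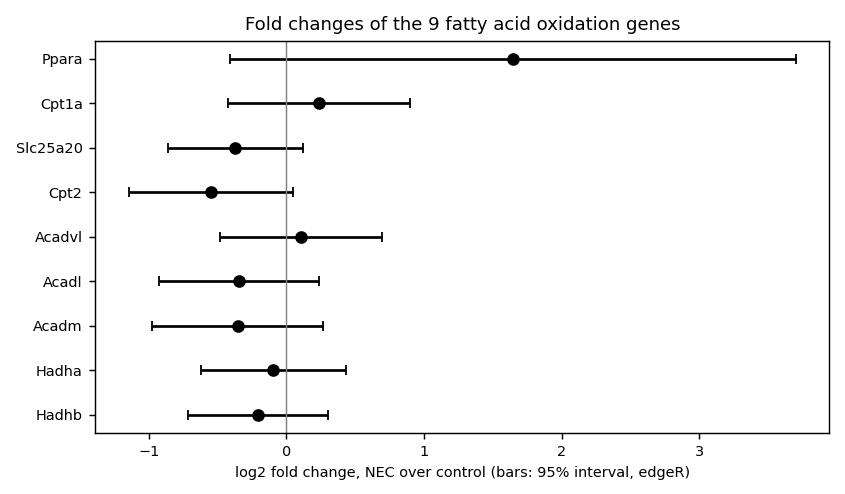
Log2 fold change of NEC over control for the 9 genes from the edgeR fit over all genes (points), with 95% intervals (bars). Every interval includes 0, and that of Ppara, from -0.41 to 3.70, is the widest.

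Ordered by CPM per kilobase of exon, averaged over the 6 libraries, Acadl was the most abundant of the 9 messages at 264 ± 50.5 (SD over 6 libraries). Acadvl followed at 68.5 ± 12.9, and the lowest Acadl library was above the highest Acadvl library. Cpt1a (46.2 ± 11.2), Hadha (43.1 ± 4.81), Cpt2 (39.5 ± 9.84), Slc25a20 (34.9 ± 5.71), Hadhb (31.2 ± 4.10) and Acadm (29.2 ± 6.86) came next, and the ranges of neighbours in this order overlapped from Acadvl down to Acadm. Ppara was lowest at 3.41 ± 3.62, with its highest library below the lowest Acadm library. Lengths were those of all annotated exons of a gene, retained introns included, so this order is approximate.

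Across libraries the 9 genes did not go up and down together. Centred on the mean of each gene over the 6 libraries, log2 CPM of NEC replicate 1 was 2.25 for Ppara and 0.57 for Cpt1a, but -0.78 for Cpt2, -0.56 for Acadm and -0.37 for Slc25a20. Averaged over the 9 genes the centred profile ran only between -0.26 in NEC replicate 2 and 0.17 in control replicate 3. Ppara weighs most in this average, since it spanned 3.96 log2 units over the libraries. The other genes spanned between 0.37 (Hadha) and 1.10 (Cpt2), mostly with lower values in NEC where Ppara was higher. The small range of the average therefore does not describe the genes without Ppara. Within AG181017 the NEC libraries were all lower in 4 genes, all higher in 1 and overlapping in 4. In AG181028, with 1 library per group and no test, NEC was lower in 7 genes and higher in 2. NEC was lower within both codes in 4 genes, Slc25a20, Cpt2, Acadl and Hadhb, and higher within both in Ppara. The share of all genes tested with these orders was not computed, so the counts only describe the 9 genes. The NEC to control ratio of Cpt2 was 0.777 in AG181017 and 0.490 in AG181028. For Acadvl the ratios were 1.16 and 0.908, and for Hadha 1.03 and 0.773, on opposite sides of 1.

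**Figure D3:**
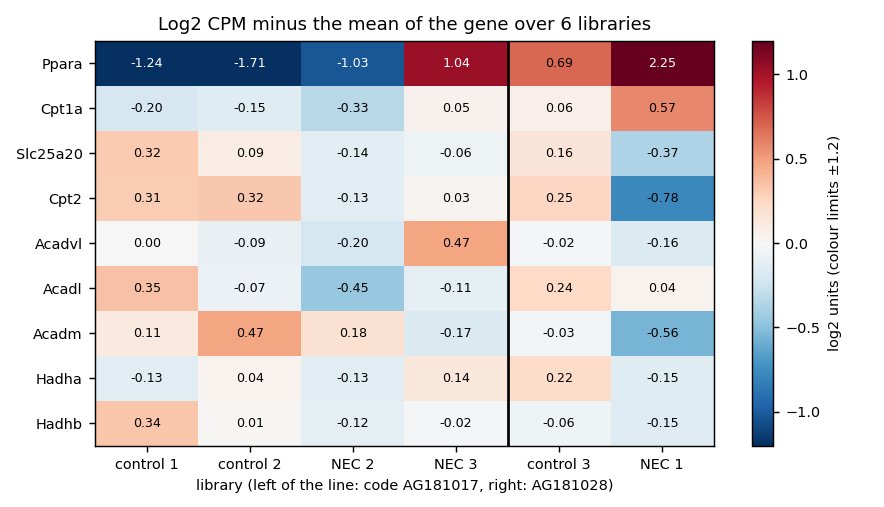
Log2 CPM of each gene minus its mean over the 6 libraries, by library, with the 4 AG181017 libraries left of the line and the 2 AG181028 libraries right of it (values printed). NEC replicate 1 combines the highest Ppara (2.25) and Cpt1a (0.57) with the lowest Cpt2 (-0.78) and Acadm (-0.56).

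Genes with a similar pattern were sought among 9869 other protein-coding genes with a mean of at least 5 CPM, by the mean absolute difference of centred log2 CPM over the 6 libraries. Nearest to the average of the 9 genes, in which Ppara weighs most, were Uqcrfs1 (0.0212), Bri3bp (0.0309) and Arhgap10 (0.0313). Uqcrfs1 is a subunit gene of respiratory complex III. Nearest to Ppara were Por, the electron donor of microsomal cytochromes P450 (0.321), Osgin1 (0.340) and the fucosyltransferase gene Fut4 (0.372). Por stood at 64.1, 32.3 and 127 CPM in the control libraries and at 312, 50.6 and 247 CPM in the NEC libraries, with the same order of libraries as Ppara except that its control replicate 1 was above NEC replicate 2. None of these genes was called (the smallest edgeR adjusted p was 0.163, for Fut4).

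Entry of fatty acids was followed in a list of 13 genes of activation and carnitine handling. None of the 13 was called, with a median log2 fold change of -0.30. Summed, they made up 3537 to 3647 CPM in control and 2323 to 2659 CPM in NEC, without overlap, and Acsl5 alone made up 1950 CPM of the control mean of 3592 CPM. An unadjusted p below 0.05 was found in 4 of 13, all with negative values, beside 15.6% of all genes tested (1533 of 19176 with negative values). Leaving out control replicate 3 moved the median to -0.49, leaving out NEC replicate 3 to -0.48 and NEC replicate 1 to -0.47, and the AG181017 samples alone gave -0.53. Slc27a2, a very-long-chain acyl-CoA synthetase, read 46.2, 22.1 and 88.0 CPM in the controls and 8.75, 6.26 and 20.8 CPM in the NEC libraries, all NEC values under all controls (log2 fold change -2.13, SE 0.61, edgeR adjusted p = 0.161). DESeq2 called it lower (adjusted p = 0.00655). Acsl5, a main acyl-CoA synthetase of the enterocyte, stood at 1869, 1983 and 1998 CPM in the control libraries and at 1001, 1187 and 1282 CPM in the NEC libraries. All NEC libraries lay well below all controls (-0.75 on the log2 scale, SE 0.24, edgeR adjusted p = 0.198). Its exons overlap those of Zdhhc6 on the opposite strand. The peroxisomal carnitine octanoyltransferase gene Crot had a log2 fold change of -0.74 (SE 0.25, adjusted p = 0.227) and Cpt1c of -0.86 (SE 0.37, adjusted p = 0.319) in edgeR.

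Of 15 other mitochondrial beta-oxidation enzyme genes, 0 were called. Their median log2 fold change was -0.32, with 13 negative and 2 positive values, and in 7 of 15 genes all NEC libraries were below all controls (11.6% of all genes tested). An unadjusted p below 0.05 was found in 4 of 15, all negative, beside 15.6% of all genes tested. Hadh, the short-chain hydroxyacyl-CoA dehydrogenase, stood at 1208, 976 and 1272 CPM in the control libraries and at 694, 637 and 741 CPM in the NEC libraries. The groups were clearly apart, with a log2 fold change of -0.74 (SE 0.24, edgeR adjusted p = 0.205). Acad11 (-0.94, SE 0.27, adjusted p = 0.161), the enoyl-CoA isomerase gene Eci1 (-0.62, SE 0.21, adjusted p = 0.221) and the dienoyl-CoA reductase gene Decr1 (-0.81, SE 0.31, adjusted p = 0.265) had negative log2 fold changes in edgeR too. Absorptive enterocyte markers, whose sums are given above, had a lower range in NEC as well, and their part in these values was not tested.

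In the list of 11 ketone body genes, 1 gene fell and 0 rose over all genes tested, where 0.443% of all genes were called lower. The gene that fell was Acat1, the mitochondrial acetoacetyl-CoA thiolase that acts in both ketone body synthesis and use. It stood at 577, 490 and 789 CPM in the control libraries and at 88.4, 155 and 134 CPM in the NEC libraries. The highest NEC library was under the lowest control by a wide margin, and the fitted fall was 4.92-fold (log2 fold change -2.30, SE 0.32, edgeR adjusted p = 0.0378). DESeq2 gave an adjusted p of 5.55e-08. Leaving out 1 library kept the call only for control replicate 2 (adjusted p = 0.0431). The adjusted p was 0.199 without the first control, 0.066 without the third control, and 0.085, 0.0513 and 0.176 without NEC replicates 1, 2 and 3, while the log2 fold change stayed between -2.49 and -2.10. The call was also lost within the 4 AG181017 samples (log2 fold change -1.91, adjusted p = 0.103) and with the replicate number as a block (-2.31, adjusted p = 0.057). The ratio of NEC to control was 0.271 in AG181017 and 0.112 in AG181028.

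Bdh1, which turns acetoacetate into beta-hydroxybutyrate, had a log2 fold change of -0.70 (SE 0.32, edgeR adjusted p = 0.347) with overlapping groups, and the antisense gene Gm15743 overlaps its exons. Aacs, which uses acetoacetate for lipid synthesis, stood at 6.09, 8.15 and 7.47 CPM in the control libraries and at 18.4, 10.8 and 12.0 CPM in the NEC libraries (NEC over control on the log2 scale 0.93, SE 0.31, edgeR adjusted p = 0.214). The median over the 11 genes was -0.49.

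**Figure D4:**
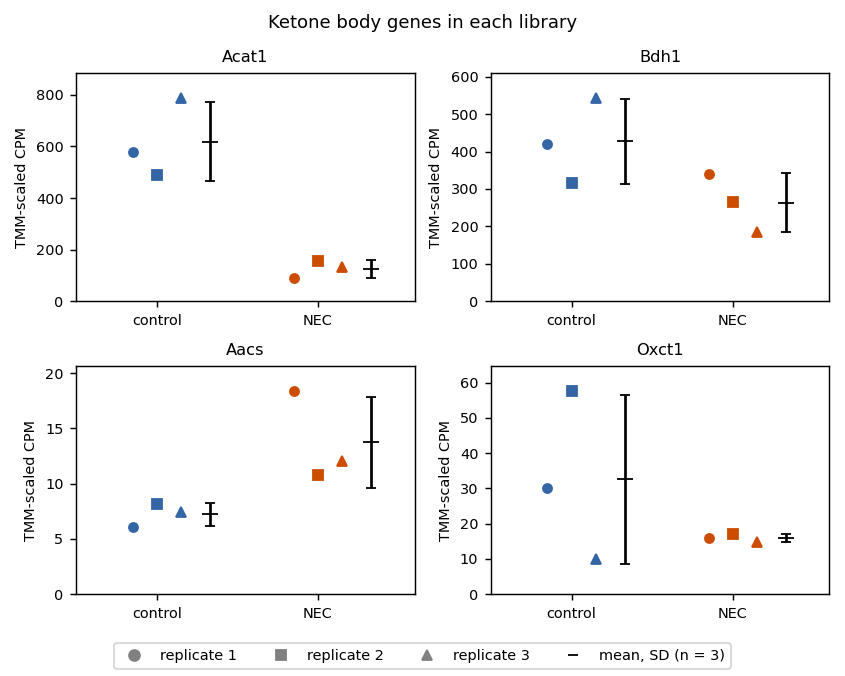
TMM-scaled CPM of Acat1, Bdh1, Aacs and Oxct1 in each library (points, marked by replicate number), with the mean and SD of 3 libraries per group. Acat1 and Aacs separate by group, Acat1 lower and Aacs higher in NEC, while Bdh1 and Oxct1 overlap.

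Of 18 peroxisomal oxidation genes 0 were called, with a median log2 fold change of -0.40 and 14 negative values. An unadjusted p below 0.05 was found in 7, of which 6 were negative, beside 15.6% of all genes tested (1533 of 19176 with negative values). Acox3, a branched-chain acyl-CoA oxidase, stood at 65.9, 63.2 and 59.5 CPM in the control libraries and at 38.0, 36.2 and 26.6 CPM in the NEC libraries (NEC over control on the log2 scale -0.90, SE 0.23, edgeR adjusted p = 0.117). Phyh, which starts phytanic acid oxidation, stood at 274, 199 and 238 CPM in the control libraries and at 136, 114 and 132 CPM in the NEC libraries (NEC over control on the log2 scale -0.90, SE 0.23, edgeR adjusted p = 0.120). In both genes the control and NEC libraries were separate. Decr2 had a log2 fold change of -0.73 (SE 0.22), and Acox2, a bile acid and branched-chain oxidase, had 0.93 (SE 0.33).

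Of 20 known PPAR alpha targets outside the oxidation pathway, 15 were tested and 0 called, with 8 positive and 7 negative values. The other 5, Cyp4a14, Cyp4a31, Cyp4a32, Fgf21 and Ucp3, were below the filter, and Fgf21 had no count in any library. The median log2 fold change of the 15 was 0.062, with no stable sign: it was -0.016, -0.073 and -0.17 without NEC replicates 1, 2 and 3, -0.0093 without the first control and 0.36 without the third. Pdk4, which blocks glucose oxidation, was not among the genes picked by smallest p and is given for its levels: 25.8, 25.6 and 52.2 CPM in control and 116, 8.02 and 131 CPM in NEC. It was highest in NEC replicates 1 and 3 and lowest in NEC replicate 2 (log2 fold change 1.30, SE 0.84, edgeR adjusted p = 0.514). The lipid droplet gene Plin2 stood at 846, 1160 and 613 CPM in the control libraries and at 283, 492 and 543 CPM in the NEC libraries (NEC over control on the log2 scale -0.99, SE 0.35, edgeR adjusted p = 0.241), with every NEC library below every control. The fatty acid binding protein gene Fabp1 (-1.82, SE 0.71, adjusted p = 0.278) and the coenzyme A carrier gene Slc25a42 (-1.28, SE 0.50, adjusted p = 0.279) had negative log2 fold changes in edgeR, and Hilpda, an inhibitor of triglyceride lipolysis, a positive one (0.58, SE 0.34, adjusted p = 0.466).

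Among PPAR partners and coregulators, 0 of 17 tested of 18 listed were called and 0 had an unadjusted p below 0.05, with a median log2 fold change of 0.36, which turned to -0.17 without NEC replicate 1 and to -0.16 within the AG181017 samples. Beside Pparg, genes with small p included Esrra, a nuclear receptor of oxidative metabolism (-0.67, SE 0.33, edgeR adjusted p = 0.390) and the Mediator subunit gene Med1 (-0.39, SE 0.23, adjusted p = 0.478). The coactivator gene Ppargc1a stood at 17.5, 15.3 and 24.1 CPM in the control libraries and at 39.2, 10.9 and 22.9 CPM in the NEC libraries, with its highest and lowest values both in NEC.

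Malonyl-CoA, the inhibitor of CPT1, is made by acetyl-CoA carboxylases and used by fatty acid synthase. Acaca, the cytosolic acetyl-CoA carboxylase, stood at 6.83, 7.23 and 6.75 CPM in the control libraries and at 14.9, 11.3 and 13.0 CPM in the NEC libraries (NEC over control on the log2 scale 0.91, SE 0.26, edgeR adjusted p = 0.151). Fasn, which uses malonyl-CoA, stood at 13.6, 11.5 and 16.6 CPM in the control libraries and at 40.7, 20.4 and 26.97 CPM in the NEC libraries (NEC over control on the log2 scale 1.08, SE 0.32, edgeR adjusted p = 0.172). In both genes every NEC library was above every control. Acacb, the carboxylase placed at mitochondria, was at 3.44 CPM or less, and the malonyl-CoA decarboxylase gene Mlycd had a log2 fold change of -0.11 (SE 0.23, adjusted p = 0.881) in edgeR. The AMPK catalytic subunit genes had values of opposite sign, -0.65 (SE 0.26) for Prkaa1 and 0.58 (SE 0.29) for Prkaa2. Over the 12 genes of malonyl-CoA and AMPK control 0 were called, with a median of 0.033, which turned to -0.055 without NEC replicate 1 and to -0.036 within the AG181017 samples.

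Nuclear genes for general mitochondrial proteins gave a measure of mitochondrial messages beside those of oxidation. Of 22 such genes 0 were called, 15 had positive values, and the median log2 fold change was 0.13. They summed to between 5802 and 7246 CPM in control and between 5861 and 7561 CPM in NEC. The import channel gene Timm23 (0.93, SE 0.24, adjusted p = 0.132) and the isocitrate dehydrogenase gene Idh2 (0.61, SE 0.23, adjusted p = 0.273) had positive log2 fold changes in edgeR, and the complex II gene Sdha (-0.52, SE 0.22, adjusted p = 0.314) and the complex I gene Ndufs1 (-0.33, SE 0.20, adjusted p = 0.473) negative ones.

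Several genes of the lists also had ratios of NEC to control that were apart between the sample codes, AG181028 holding 1 library per group and giving no test. Hilpda was on opposite sides of 1, at 1.82 in AG181017 and 0.922 in AG181028. Ratios were nearer to 0 in AG181028 for Slc27a2 (0.396 against 0.0993), Fabp1 (0.395 against 0.114), Cpt1c (0.669 against 0.386) and Decr1 (0.641 against 0.409). They were further above 1 in AG181028 for Aacs (1.602 against 2.46), Acox2 (1.52 against 2.79) and Idh2 (1.30 against 2.05). Prkaa1 was at 0.537 in AG181017 and 0.920 in AG181028.

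**Figure D5:**
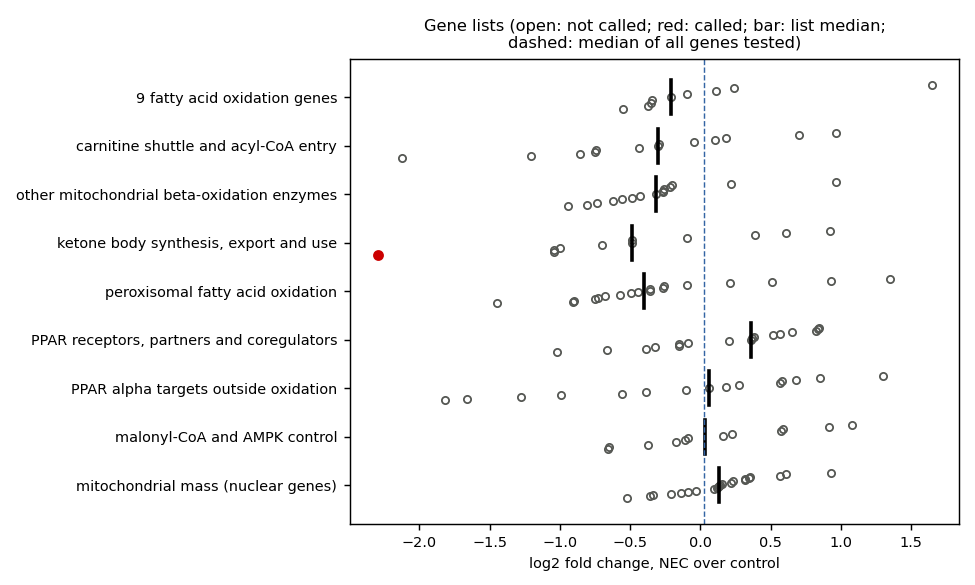
Log2 fold change of NEC over control (x axis) for the tested genes of each list (points, spread vertically for legibility), with the list median (bar) and the median of all genes tested (dashed line). The only called gene, in red, is Acat1, and the 4 lists of entry, mitochondrial, ketone body and peroxisomal genes have medians between -0.49 and -0.30.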

How the data were processed

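Whole-number gene counts for 3 control and 3 NEC samples were used as the authors deposited them, in 1 table. The submitters' processing notes name mm10 as build. No source used here names the aligner, the counter, its annotation or its strand setting. Low counts from 5 to 40 were 1.56 times as frequent at multiples of 4 as at other values, so totals may overstate the number of fragments. Identifiers were matched to GENCODE M21 (54409 of 54446). Promoter windows came from RefSeq, build GRCm38.p6.

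Genes kept by filterByExpr (minimum count 10) were scaled by TMM and tested in edgeR 4.0.16 (R 4.3.3) with robust dispersions over all 6 samples, without covariates. The code was tested on simulated data. DESeq2 1.42.0, limma-voom 3.58.1 and other scalings, filters and sample choices were the alternatives. The members and the gene lists were chosen with earlier results of these data known. Named genes were the 9 members, up to 4 per pathway list with the smallest p, called genes, and the 3 genes nearest in pattern to the members and to Ppara; Pdk4, Ppargc1a, Mlycd, Acacb, Ppard, Cpt1b and Oxct1 were added after their values were seen. Every pair of libraries within a group differed by far more than sampling noise, and replicate numbers were not taken to pair samples. Some genes that the rule names are not reported here.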

Additional observations from a re-analysis of the deposited data

How the results depend on the processing

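None of the 9 genes was called in any of the 19 alternatives, among them DESeq2, limma-voom, other scalings and filters, the sample code as a term and each left-out library. Their median log2 fold change kept its sign in all of them. The number of genes called over the whole table was 25 within the 4 AG181017 samples, 1288 with DESeq2, 247 without a low-count filter and 243 with the sample code term. Of the 19 alternatives, 1 was chosen after seeing the data and left out control replicates 1 and 2, the libraries with Xist. It leaves 1 control, assumed to vary like the NEC group. The part of sex in these results was not tested. Leaving out each library in turn gave 0 to 106. Replicate numbers were not taken to pair the samples. Same-numbered deviations from the group means correlated at -0.14, 0.27 and -0.007, which cannot exclude a pairing. The highest correlation across groups, 0.36, was between control replicate 3 and NEC replicate 1, the AG181028 libraries. With the replicate number as a block 54 genes were called, 1 of them in the carnitine and entry list (Slc27a2, adjusted p = 0.0452), and 0 ketone body genes, since Acat1 missed the threshold (adjusted p = 0.057) at a log2 fold change of -2.31. DESeq2 also called 1 gene of the entry list. The ketone body count was 0 within the AG181017 samples and without control replicates 1 and 2, and 0 to 1 when each library was left out. The median of the other mitochondrial oxidation enzymes was -0.38 within AG181017, -0.25 with library size scaling, -0.54 without control replicates 1 and 2, and -0.47 to -0.31 with each library left out. For ketone body genes it was -0.088 without those controls and -0.71 to -0.38 with each library left out. For PPAR partners it turned to -0.26 without those controls and -0.16 within AG181017, and ran from -0.17 to 0.50 with each library left out. For PPAR alpha targets it was -0.42 without those controls and -0.17 to 0.36 with each library left out, and for the entry list -0.53 within AG181017 and -0.49 to -0.25. Hadha turned to 0.021 within AG181017. With each library left out, Cpt1a ran from -0.040 to 0.43 and Acadvl from -0.14 to 0.21. The cause of these changes was not tested. With 3 samples a group, intervals of the 9 genes allow sizeable changes, but not in both directions for every gene. On the log2 scale the interval ran from -0.86 to 0.12 for Slc25a20 and from -1.15 to 0.05 for Cpt2.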
